A study of Homo sapiens with 5 samples.

Results

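The block described here is a stretch of neighbouring rows in a gene count table of nascent transcription, rows 3319 to 3916, which cover the start of human chromosome 3. The rows were chosen by their deposited counts, which were higher in one of the study's cell lines than in the other, so the values of that comparison describe the choice and no test of them is given. Of its 598 rows, 474 carried an Ensembl gene identifier and had 15 or more counts summed over the libraries, and these 474 genes are the members, out of 20001 genes with an identifier in the table.

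The samples were 5 PRO-seq libraries of HEK293T, an established line derived from human embryonic kidney. PRO-seq lets engaged RNA polymerases add biotin-labelled nucleotides in isolated nuclei, so its reads report transcription in progress. In 3 libraries the cells had a landing pad (a genomic site made to receive inserted DNA) with CAG, a strong synthetic promoter (CAG line), and in 2 libraries a landing pad with the promoter of PGK, a glycolysis gene (PGK line). All cells were grown under the same protocol and described as monoclonal. The number of clones per promoter is not in the labels, so promoter and clone cannot be told apart, nor do the labels say whether replicates were separate cultures, so their spread may be technical. Library totals were 4873883, 5003130 and 5864157 counts in the CAG line and 5582070 and 3712105 counts in the PGK line.

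The short arm of chromosome 3 is known for the tumour suppressor genes VHL, PBRM1, BAP1 and SETD2, which are often lost together in clear cell kidney cancer. Neighbouring genes on a chromosome share their DNA copies and often their chromatin state. Neither the files nor the reference used here pair Ensembl identifiers with gene names, so members are given by row, with an identifier for 3 of them, and no role is given to any. No value given here is tied to a gene just named.

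The position of the block was checked with 30 identifiers of widely known chromosome 3 genes, of which 23 lay in the block. These identifiers were tied to their genes by a hand-kept list from general knowledge, since no source used here pairs them. The order of the rows matched the order of these genes in RefSeq (GRCh38.p14) for all 30, so the label of the block held as far as that list is right. The earliest of them stood in row 3316, just before the block. The last short-arm gene of the check stood in row 3816 and the first long-arm gene in row 3817. The block therefore holds 498 rows of the short arm and 100 rows of the long arm.

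Nascent transcription over the block was higher in the CAG line in every library. The members took 4.57%, 4.52% and 4.60% of the counts in the CAG libraries, against 3.42% and 3.42% in the PGK libraries. The libraries of each line lay close together and the lines did not overlap. The CAG line had a mean share of 4.56% ± 0.0376 (SD, n = 3), against 3.42% ± 0.00273 in the PGK line (SD, n = 2), a ratio of 1.33. The short-arm members alone held 3.93% ± 0.0249 of CAG counts, against 2.93% ± 0.0215 of PGK counts, and the long-arm members 0.629% ± 0.0134 of CAG counts, against 0.485% ± 0.0188 of PGK counts. In bulk libraries more transcribing cells and more transcription per cell cannot be told apart, and the counts hold no measure of DNA copies.

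**Figure D1:**
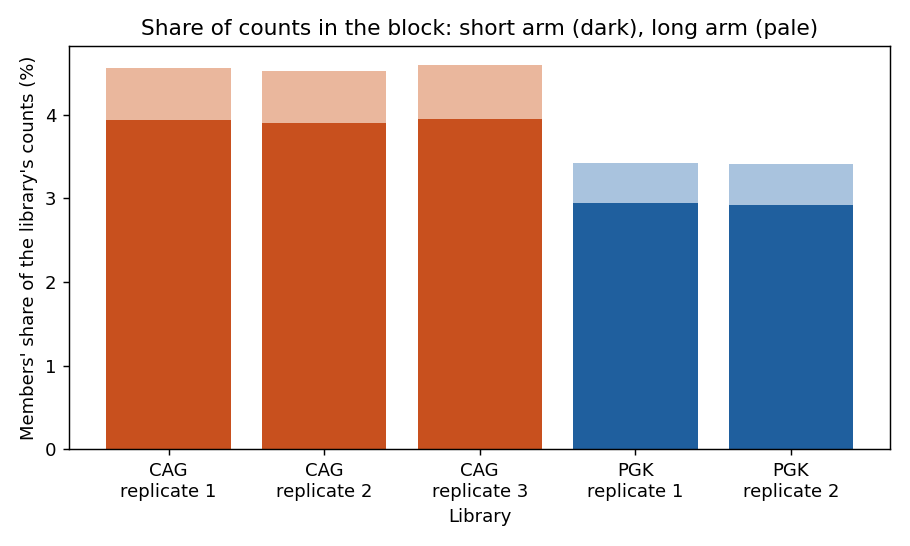
Share of each library's counts (percent, vertical axis) that fell on the members, with short-arm members in the dark part of each bar and long-arm members in the pale part. The 3 CAG libraries stand between 4.52% and 4.60% and both PGK libraries at 3.42%.

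Most members were higher in the CAG line, with a modest fold change for the greater number. Of the 474 members, 449 passed edgeR's filter on low counts and were tested in a fit over all 13400 genes that passed. The median log2 fold change of CAG over PGK was 0.39 over the tested members, a 1.31-fold difference, against -0.00 over all tested genes. The fold change was above 0 for 417 members (92.9%), against 49.4% of all tested genes. With edgeR's quasi-likelihood test and an adjusted p under 0.05 over all genes, 325 members (72.4%) were called higher in the CAG line, against 22.7% of all tested genes, and 9 were called lower, against 20.7%. The other 115 were not called, and calls in either direction made up 43.4% of all tested genes. Without CAG replicate 1 the 9 became 5. All CAG libraries lay above all PGK libraries for 363 members (80.8%), against 30.9% of all tested genes, and below them for 13 members, against 30.4% of all tested genes. These counts follow from how the rows were chosen.

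Members kept close to the common level. The middle 50% of log2 fold changes ran from 0.24 to 0.64, and 280 members (62.4%) lay within 0.25 of the block's median. Only 3 members lay more than 1 below that median and 18 more than 1 above it. The median absolute deviation, scaled to an SD, was 0.24 over the members and 0.37 over all tested genes. It was 0.20 in the 50 tested rows before the block, 0.20 in the 50 after it and 0.33 over the rest of chromosome 3. Most of the rows before the block stood ahead of row 3316, the earliest chromosome 3 gene of the check. The members were thus no closer together than the rows next to them.

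Within each line the libraries gave almost the same level for the block. The median over members of log2 CPM (the count scaled to a common library size with TMM factors) minus the gene's mean over the 5 libraries was 0.16, 0.16 and 0.16 in the CAG libraries and -0.24 and -0.24 in the PGK libraries. The difference of the line means was 0.40, and the SD within a line was at most 0.004. Any CAG library set against any PGK library gave a median difference between 0.38 and 0.40, while the median difference between libraries of one line was at most 0.023 in size. Single genes scattered more: the SD of the log2 difference over members was 0.187 to 0.196 between CAG libraries and 0.317 between the PGK libraries.

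The level changed at the first rows of the block and near its last ones, which follows from how the rows were chosen. The 10 tested rows before the block (rows 3303 to 3318) had a median log2 fold change of 0.05, and the first 10 tested members (rows 3319 to 3330) one of 0.42, with 9 of 10 above 0. At row 3319, the first member, 25, 30 and 26 counts in the CAG libraries stood against 22 and 12 in the PGK libraries, with no overlap, although the log2 fold change of 0.47 was not called at these low counts. Row 3320 had 76.5, 71.2 and 79.6 CPM in the CAG libraries, against 51.8 and 62.8 CPM in the PGK libraries. The lines did not overlap there, and the log2 fold change was 0.43.

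The far end was less sharp. The last 10 tested members (rows 3904 to 3916) had a median of 0.22, all of them above 0, and the first 10 tested rows after the block (rows 3917 to 3932) one of -0.01. The last member, in row 3916, had 121, 117 and 130 CPM in the CAG libraries and 54.3 and 63.1 CPM in the PGK libraries, a log2 fold change of 1.08 with no overlap, while the row after it stood at 0.15. Of the 50 tested rows after the block, 7 (14%) were called higher and 8 (16%) lower, against 22.7% and 20.7% of all tested genes. Over rows 3917 to 4355, the rest of chromosome 3 as far as the check reached, the median was -0.10. Of the 293 tested genes there, 37 (12.6%) were called higher and 101 (34.5%) lower.

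**Figure D2:**
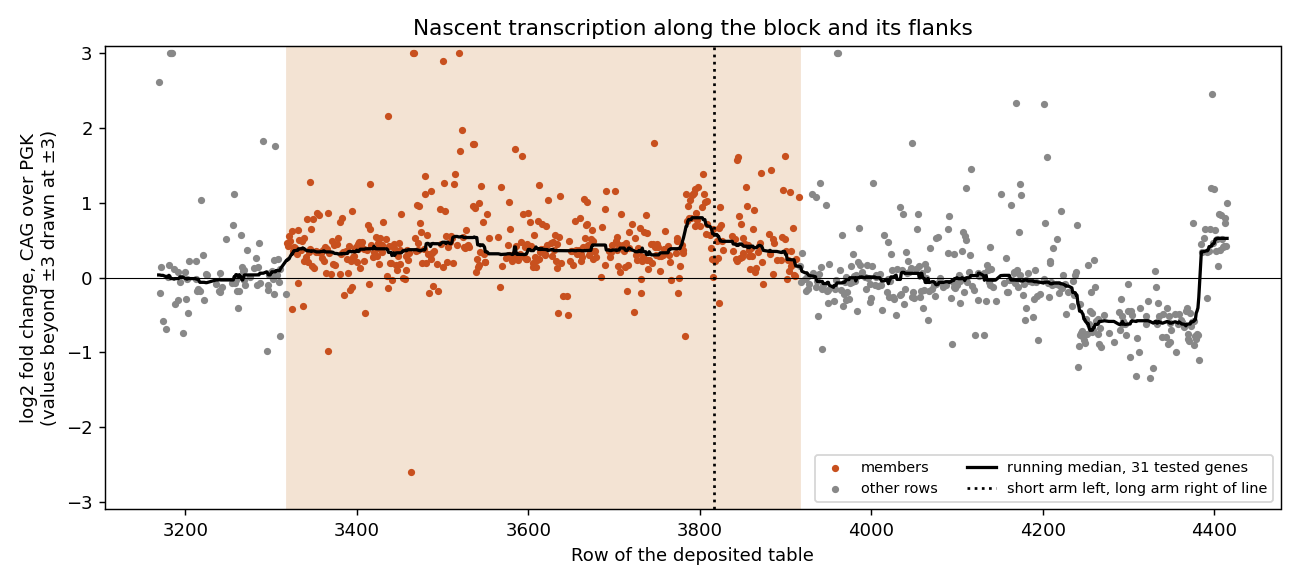
log2 fold change of CAG over PGK (vertical axis) for each tested gene in the row order of the table (horizontal axis), with members in orange on the shaded rows 3319 to 3916, other rows in grey, and a black running median over 31 tested genes; values beyond ±3 are drawn at ±3. The running median leaves 0 at the start of the block, stays near 0.39 over much of it, stands higher over part of the rows from 3501 to 3580 and again shortly before the dotted line between the arms, and returns to 0 at the end.

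Both arms took part, with close medians. The 382 tested members of the short arm had a median log2 fold change of 0.39, with 272 (71.2%) called higher and 8 (2.09%) lower. The 67 tested members of the long arm had a median of 0.37, with 53 (79.1%) called higher and 1 (1.49%) lower. Of all tested genes, 22.7% were called higher and 20.7% lower. In 3 runs of equal size along the block, the medians were 0.36, 0.41 and 0.42.

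Finer division showed 2 places where the level stood higher. Of 9 runs of 49 or 50 tested members, 7 had medians between 0.34 and 0.38. The run from row 3501 to row 3580 had a median of 0.54 and the run from row 3777 to row 3845 one of 0.67. In each of these runs 13 members had a log2 fold change above 1, against 1 to 7 in the others. All CAG libraries lay above all PGK libraries in each of the 9 runs.

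The PGK libraries differed from each other along the block. From row 3637 to row 3707 the level was -0.14 in PGK replicate 1 and -0.35 in PGK replicate 2. From row 3777 to row 3845 the order turned, with -0.44 in PGK replicate 1 and -0.33 in PGK replicate 2. The 2 runs also differed in count level, with a median of 37.9 CPM in the first and 66.9 CPM in the second. Grouped by mean CPM instead of by row, the members showed the same turn. PGK replicates 1 and 2 stood at -0.29 and -0.51 in the lowest of 4 groups and at -0.25 and -0.15 in the highest. Whether the difference goes with position or with count level was not tested. The largest SD of the run levels was 0.149 in the PGK line and 0.051 in the CAG line.

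**Figure D3:**
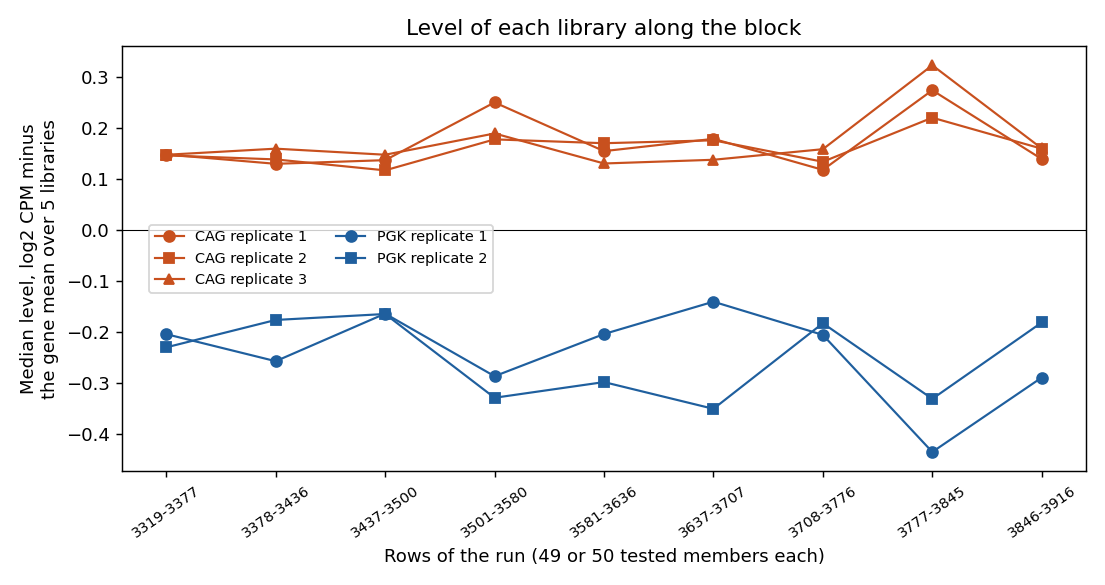
Median level of each library (vertical axis, log2 CPM minus the gene's mean over 5 libraries) in 9 runs of tested members along the block (horizontal axis, first and last row), with CAG libraries in orange and PGK libraries in blue. The CAG libraries stay above 0 and the PGK libraries below 0 in every run, and the gap is widest over rows 3777 to 3845.

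The wider of these gaps came from one unbroken run of genes. All 23 tested members from row 3784 to row 3812, at the centromeric end of the short arm, had log2 fold changes between 0.58 and 1.38. Their median was 0.96, a 1.94-fold difference, against 0.32 in the 20 tested members before them and 0.38 in the 20 after them. This was the longest run of members above 0.5, the next having 5 members, and the limit of 0.5 was set after its values were seen. In the whole count table, 3 such runs were at least this long. The level of the 23 members was 0.35, 0.36 and 0.44 in the CAG libraries and -0.55 and -0.50 in the PGK libraries. The run was picked by this same comparison, so a wide gap between the lines follows from the choice. Without PGK replicate 1 the median of the run was 0.84. Leaving the run out, the other 426 tested members had a median of 0.37.

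The run held the member with the highest mean count of the block. Row 3805 had 1184, 1143 and 1202 CPM in the CAG libraries and 510 and 571 CPM in the PGK libraries. Its lowest CAG library was higher than either PGK library by far more than the spread of each line, and the log2 fold change was 1.12. Row 3791, the member with the third highest mean, had 643, 624 and 655 CPM in the CAG libraries and 295 and 300 CPM in the PGK libraries, a log2 fold change of 1.11. The steepest rise of the run was in row 3804, with 312, 292 and 322 CPM in the CAG libraries and 110 and 128 CPM in the PGK libraries (log2 fold change 1.38). All CAG libraries lay above all PGK libraries in each of these rows.

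The run began and ended within a few rows. Row 3783, the tested member before it, had 3, 11 and 8 counts in the CAG libraries and 10 and 12 in the PGK libraries, too few to place it. Row 3784 had 255, 240 and 302 counts in the CAG libraries and 139 and 75 counts in the PGK libraries, a log2 fold change of 1.12. At the other side, row 3812 stood at 0.58 and row 3813 at 0.40, with 112, 105 and 121 CPM in the CAG libraries and 81.9 and 90.8 CPM in the PGK libraries.

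Outside the run, large positive fold changes were found mostly in weakly counted genes. Of the tested members 51 (11.4%) had a log2 fold change above 1, against 5.22% of all tested genes, and 1 had one below -1, against 1.96%. Of the 51, 11 lay in the run and 40 elsewhere, where their median level was 7.62 CPM. In 4 groups of members by mean level, the median log2 fold change was 0.67 in the lowest group (median 8.10 CPM), then 0.43 and 0.36, and 0.34 in the highest group (median 191 CPM). In the lowest group the level of PGK replicate 2 was -0.51 and that of PGK replicate 1 was -0.29. The share called higher went the other way, with 53.1% in the lowest group and 86.6% in the highest, and the median standard error was 0.24 and 0.08 on the log2 scale. Some of the weakest members passed edgeR's filter only through the CAG libraries. Row 3593, for example, had 10, 11 and 17 counts in the CAG libraries and 5 and 2 in the PGK libraries. The count of 51 and the median of the lowest group rest partly on such members.

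**Figure D4:**
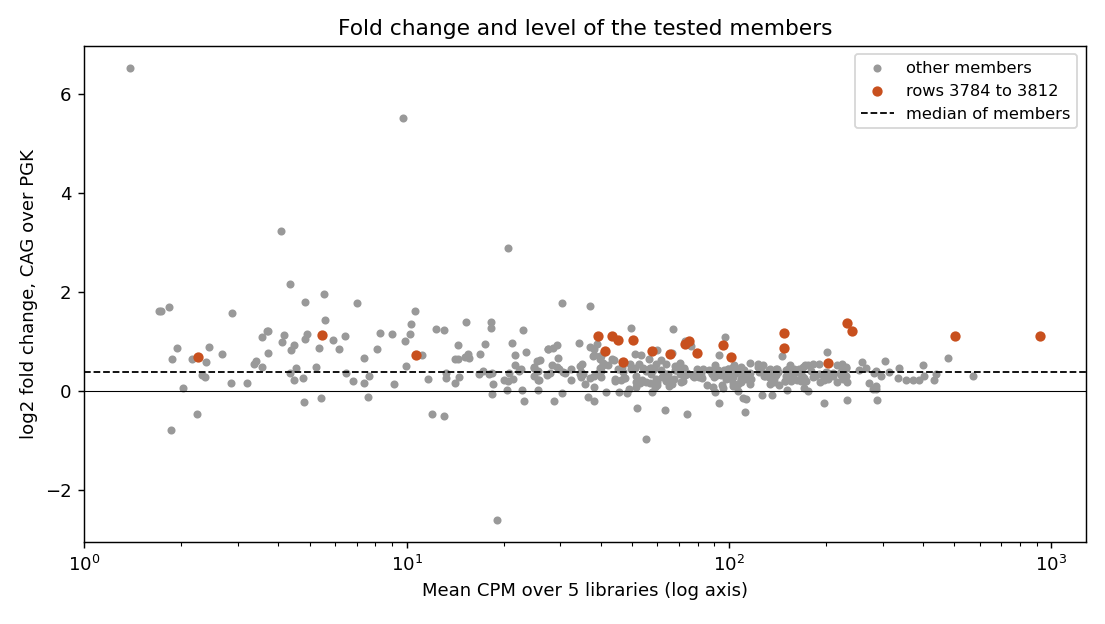
log2 fold change of CAG over PGK (vertical axis) against mean CPM over 5 libraries (horizontal axis, log scale) for the 449 tested members, with rows 3784 to 3812 in orange and the members' median of 0.39 as a dashed line. Scatter around the median narrows with level, and the orange points lie above the line at every level.

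A few members differed far more than the block did, in both directions. Row 3466 had 13, 13 and 10 counts in the CAG libraries and 0 and 0 counts in the PGK libraries. It was thus detected in all CAG libraries and in neither PGK library. With 0 PGK counts it passed edgeR's filter only through the CAG libraries, so its place among the tested members rests on its being high there. Against a limit of 3 counts over both PGK libraries (0.326 CPM) the CAG level was at least 7.08-fold higher.

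Other members moved the opposite way. ENSG00000144681, in row 3463, had 28, 36 and 35 counts in the CAG libraries and 204 and 145 counts in the PGK libraries. It averaged 6.26 ± 0.758 CPM in the CAG line (SD, n = 3), against 38.4 ± 3.17 CPM in the PGK line (SD, n = 2), a log2 fold change of -2.60, the lowest of the block.

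ENSG00000177873, in row 3501, rose far above the block's median. It had 32.1, 30.3 and 32.5 CPM in the CAG libraries and 4.96 and 3.08 CPM in the PGK libraries, with no overlap. The log2 fold change was 2.90. It opened a run of 4 members up to row 3504 that were all above 0.5, with a median of 1.08. Rows 3519 to 3524 and rows 3535 to 3538 held further runs of 4 members above 0.5, with medians of 1.83 and 1.37.

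Row 3519 rested on few counts, with 40, 24 and 37 in the CAG libraries and 5 and 1 in the PGK libraries. So did row 3520, with 10, 13 and 17 counts in the CAG libraries and 3 and 4 in the PGK libraries. Both passed edgeR's filter only through the CAG libraries, and the median of 1.83 rests partly on them. Row 3536 was better counted, with 38.4, 43.1 and 45.3 CPM in the CAG libraries and 10.6 and 14.6 CPM in the PGK libraries (log2 fold change 1.79). Of the 51 members above 1, 21 had a neighbouring tested member that was also above 1. Across the 448 neighbouring pairs of tested members the log2 fold changes had a Pearson correlation of 0.18 and a Spearman correlation of 0.12, given as a description since neighbours share their libraries.

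The 9 members called lower in the CAG line were not evenly spread over the block. In 3 runs of equal size, 5 (3.33%) lay in the first, 3 (2.01%) in the middle and 1 (0.667%) in the last, against 20.7% of all tested genes. Those of the middle run all lay in rows 3635 to 3645. ENSG00000132164, in row 3367, had 39.7, 40.1 and 39.8 CPM in the CAG libraries and 81.7 and 74.3 CPM in the PGK libraries. The CAG libraries were almost equal and lay well below both PGK libraries, and the log2 fold change was -0.98. Of the other members called lower, 7 had log2 fold changes between -0.47 and -0.24, among them row 3325 with 470, 498 and 595 counts in the CAG libraries and 724 and 482 counts in the PGK libraries. For that row the CPM values, 98.4 ± 2.82 for CAG and 132 ± 4.79 for PGK, did not overlap although the raw counts did. Row 3646 had the next largest fall among members with at least 5 CPM (-0.50), but rested on a single library: its levels were 12.2, 11.5 and 10.9 CPM in the CAG libraries and 20.7 and 9.81 CPM in the PGK libraries, it was not called, and it turned to 0.22 without PGK replicate 1.

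**Figure D5:**
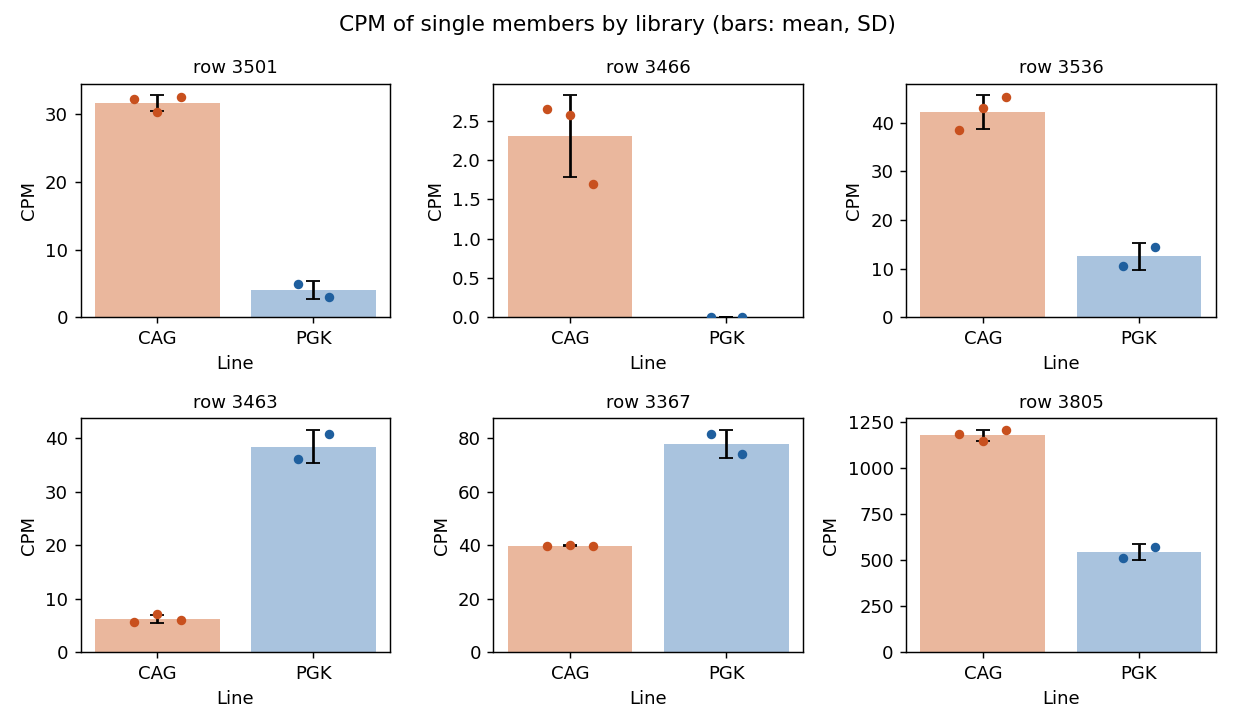
CPM (vertical axis) of 6 members in the CAG line (left bar) and the PGK line (right bar), with points for libraries, bars for means and error bars for the SD (n = 3 and n = 2). Rows 3501, 3466, 3536 and 3805 are higher in all CAG libraries, and rows 3463 and 3367 are lower in all of them.

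Among the 6 members with the highest mean levels, those outside the run had smaller differences. Row 3585, the second highest, had 609, 600 and 642 CPM in the CAG libraries and 483 and 520 CPM in the PGK libraries. The lines did not overlap, and the log2 fold change was 0.30. Row 3823, beyond the centromere, had 562, 540 and 581 CPM in the CAG libraries and 318 and 392 CPM in the PGK libraries, a log2 fold change of 0.66. The remaining pair, rows 3765 and 3868, stood at 0.22 and 0.34. Row 3765 averaged 458 ± 33.3 CPM in the CAG line, against 395 ± 24.0 CPM in the PGK line.

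Members were somewhat more highly counted than other genes. The median of mean CPM was 63.2 over the tested members, 53.7 over the 293 tested genes in the rest of chromosome 3 and 47.5 over all tested genes. Counts were not divided by gene length, so these medians do not compare transcription between genes. Of the rows in the block 79.3% reached 15 counts, against 72.5% of all rows with an identifier. The mean CPM and the summed counts include the CAG libraries, whose higher counts chose the rows. These differences are therefore no separate trait of the members.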

How the data were processed

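The authors deposited gene counts that are whole and not normalized. The submitters' processing notes name featureCounts 2.0.3, UMI-tools, HISAT2 2.2.1, Bowtie2 2.5.1, cutadapt and fastp 0.23.2, with hg19 as the build. Tool roles, annotation and strand setting were not given in the sources used here, so values of overlapping or antisense genes are uncertain. Of 20019 rows, 18 without an identifier (at most 0.000448% of a library) were left out.

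Counts were filtered with edgeR's filterByExpr (minimum count 10, minimum total 15), scaled by TMM and tested over all 13400 remaining genes, CAG over PGK with no covariate, by the quasi-likelihood F test with Benjamini-Hochberg adjustment (edgeR 4.0.16, R 4.3.3). The filter kept at least 99.8% of each library's counts. log2 CPM used a prior count of 2. The fit was tested on simulated data. The members, the lists and the tests were chosen with earlier results of these data known.

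Genes named singly were, by rule, the first 2 and last 2 tested members, the 6 with the highest mean CPM, the 6 largest rises and the 6 largest falls among members with a mean of at least 5 CPM, and rows at the 15-count limit. At most 2 identifiers per direction are printed, 1 member that the rule names is not reported here, and other rows in the text were chosen after their values were seen. The reference held 0 rows with an Ensembl identifier, so the 17 gene and marker lists, promoter features, sequences and the check of the cell type by its markers were not analysed here.

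Tried as alternatives were the test of DESeq2 1.42.0, its size factors, TMM without the block, upper-quartile factors, limma-trend (limma 3.58.1), other filters, the replicate number as a block and leaving out each library.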

Additional observations from a re-analysis of the deposited data

How the results depend on the processing

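The block's median log2 fold change of 0.39 stayed above 0 in every setting run. It was 0.41 with upper-quartile factors, 0.40 with TMM factors from genes outside the block, 0.39 under limma-trend, 0.38 over members with at least 100 counts and 0.39 to 0.41 with 1 library left out. The median of the first of 3 equal runs was 0.39 with upper-quartile factors and 0.34 to 0.39 with 1 library left out. The short-arm median was 0.41 with upper-quartile factors, 0.40 with TMM factors from genes outside the block and 0.39 to 0.41 with 1 library left out, and the long-arm median was 0.34 to 0.45. The median of rows 3784 to 3812 was 0.84 to 1.01. The difference of the library levels was 0.39 with a prior count of 5 and 0.41 with TMM factors from genes outside the block. The 325 members called higher became 265 under DESeq2 on the same genes and 287 to 313 with 1 library left out. Row 3646 turned to 0.22 without PGK replicate 1 and was -0.85 without PGK replicate 2. The causes were not tested.

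With the replicate number as a block, the median was 0.39, 270 members were called higher, 268 of them also without it, and 4667 genes were called in all. No label ties a number to a batch. Libraries that share a number had deviations correlated at 0.04 (replicate 1) and -0.07 (replicate 2). With 2 PGK libraries, their deviations from the PGK mean are exact opposites, so these values cannot decide on pairing. No pairing was assumed. A PGK library left alone was taken to vary as CAG libraries do. Arms, runs and shares were recomputed as alternatives chosen after seeing the data. Depth limits scarce members, as their standard errors show.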

Other observations

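Weakly counted rows of the block were not tested one by one. The 25 members that did not pass edgeR's filter had 15 to 47 counts each. Summed over them there were 182, 144 and 161 counts in the CAG libraries and 110 and 54 counts in the PGK libraries. For 1 of them both PGK libraries held 0 counts, and 0 of them had 0 counts in all CAG libraries. Of the 124 rows below the 15-count limit, 53 had 0 counts in every library and 71 had at least 1 count. These 124 rows held 120, 87 and 100 counts in the CAG libraries and 91 and 38 counts in the PGK libraries. At the limit, row 3421 with 15 counts was the weakest member, and 4 rows with 14 counts fell just outside. Of those 4, row 3499 had 4, 7 and 3 counts in the CAG libraries and 0 and 0 counts in the PGK libraries.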
